A study of Homo sapiens with 9 samples.

Results

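The genes of albumin (*ALB*), alpha-fetoprotein (*AFP*) and 6 further plasma proteins of the liver were followed across RNA-seq libraries of HepG2 cells, a human liver cancer line. The other genes were transthyretin (*TTR*), retinol-binding protein 4 (*RBP4*), the fetuins A and B (*AHSG* and *FETUB*), the alpha-1-microglobulin and bikunin precursor (*AMBP*) and alpha-1-antitrypsin (*SERPINA1*). They were taken by symbol from the count tables, which gave 8 of 13017 genes in the table of sh1-*TUG1* cells and 7 of 12953 in the table of sh2-*TUG1* cells, where *FETUB* was not listed. The study asked how the long non-coding RNA *TUG1* affects pathways of liver cancer cells, and its libraries came from 3 stable HepG2 lines kept in low-glucose medium. The sh-Con line carried a control short hairpin RNA (shRNA), labelled as wild type, and the sh1-*TUG1* and sh2-*TUG1* lines each carried a different shRNA against *TUG1*, labelled as *TUG1* knockdown. All 3 shRNAs sat in the same lentiviral vector, from which doxycycline induces the hairpin, so that the control cells carried the vector as well. Each group had 3 libraries, described by the study as technical replicates, so the p-values below measure the spread between libraries and not between cultures or independently made lines. *TUG1* itself was not analysed here, so the knockdown was taken from the labels.

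Most proteins of blood plasma are made by hepatocytes and secreted through the endoplasmic reticulum and Golgi. Albumin is the main carrier of fatty acids, hormones and drugs in plasma, and alpha-fetoprotein is its fetal relative, encoded by the next gene, silenced after birth and often made again by liver cancers. Transthyretin carries thyroxine and also binds retinol-binding protein 4, which brings vitamin A from the liver to other tissues. Fetuin A keeps calcium salts in solution, bikunin and alpha-1-antitrypsin inhibit proteases, and alpha-1-microglobulin binds heme.

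The libraries held 33054291 to 36958812 counts in sh-Con, 33476844 to 36862668 in sh1-*TUG1* and 33304260 to 39393293 in sh2-*TUG1*. Libraries of a group differed by more than read sampling, with a chi-squared per degree of freedom of 6.38 to 24.8 where sampling alone gives about 1. The highest values were those of sh-Con replicate 1 against the other control libraries and of sh2-*TUG1* replicate 3 against its group. The effect of leaving out single libraries is given beside many of the results, but not beside all. All 17 markers of the hepatocyte lineage were listed. Of the markers of other cell types, 1 of 6 for fibroblasts, 2 of 5 for endothelium, 2 of 6 for immune cells and 4 of 6 for cholangiocytes were listed, and the defining genes *COL1A1*, *COL1A2*, *CDH5*, *PTPRC* and *CD3E* were not. The summed level of each of these cell types is given below beside a gene with the same order of groups. That shared order is therefore no separate result.

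Where the upstream sequence of these genes is given in RefSeq (GRCh38.p14), the 250 bases before each transcript start were searched on both strands for short motifs of liver and core promoters. A window was found for 7 of the 8 genes, 11 windows in all, and the windows of 2 genes that were higher and 1 that was lower in both knockdown lines are printed here, in transcript direction, with motif matches in capitals. The letters searched for HNF4, a nuclear receptor of hepatocytes, were CAAAGT. For the pioneer factors of the FOXA family the letters TGTTTAC were searched, and for C/EBP, a family of leucine zipper factors, the letters TTGCGCAA. The CCAAT box, bound by NF-Y, was searched under its own letters, and the TATA box as TATAAA. Letters of the HNF1 half-site, GTTAAT, were not among those searched. They occur in lower case in the *ALB* and *AFP* windows, so the capitals do not mark every liver motif.
*ALB* chr4:73404037-73404286, plus strand: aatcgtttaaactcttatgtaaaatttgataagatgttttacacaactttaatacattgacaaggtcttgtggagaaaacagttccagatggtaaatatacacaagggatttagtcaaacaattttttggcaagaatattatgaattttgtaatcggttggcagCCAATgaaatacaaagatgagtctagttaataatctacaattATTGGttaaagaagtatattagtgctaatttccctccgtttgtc
*AFP* chr4:73435971-73436220, plus strand: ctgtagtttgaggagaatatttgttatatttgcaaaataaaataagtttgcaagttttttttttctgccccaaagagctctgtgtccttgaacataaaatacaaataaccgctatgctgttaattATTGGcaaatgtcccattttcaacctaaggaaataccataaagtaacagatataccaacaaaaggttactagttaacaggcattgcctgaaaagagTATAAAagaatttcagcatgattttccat
*AHSG* chr3:186612810-186613059, plus strand: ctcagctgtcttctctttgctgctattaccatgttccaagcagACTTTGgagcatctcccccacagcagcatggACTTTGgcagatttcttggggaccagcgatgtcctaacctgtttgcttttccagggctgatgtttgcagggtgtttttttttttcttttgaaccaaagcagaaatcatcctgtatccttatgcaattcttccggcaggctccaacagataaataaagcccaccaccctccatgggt

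The capitals in the *ALB* window mark CCAAT letters from position −86, counted back from the transcript start, and, on the other strand, from −44. In the *AFP* window they mark CCAAT letters of the other strand from −125 and TATAAA from −29. The *AHSG* window holds the HNF4 letters on the other strand from −207 and −176. None of these matches overlaps another. Of 35116 windows of all genes, the shares with each motif were 10.3% for HNF4, 2.98% for FOXA, 0.131% for C/EBP, 32.0% for CCAAT and 10.7% for TATAAA. The *ALB* and *AFP* windows had a GC content of 30.0% and 31.6%, against a median of 58.0% over all windows. A match of letters does not show that a factor binds. The gene positions given here are those of GENCODE 29, which starts *ALB*, *AFP* and *AHSG* before the RefSeq starts used for these windows, so that the *ALB* and *AFP* windows lie inside the gene span and the *AHSG* window runs past its start.

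In sh-Con cells *ALB* held 1.35% ± 0.100 of all counts (SD, n = 3) and ranked second among all genes, and *AHSG* and *SERPINA1* were between ranks 4 and 6. Levels of different genes were compared per length, as counts scaled to a common library total with edgeR's TMM factors (CPM) and divided by the kilobases of annotated exon. On that scale the level in sh-Con was 3999 ± 262 CPM per kb for *ALB* (SD, n = 3), 3391 ± 129 for *AHSG*, 1517 ± 207 for *SERPINA1*, 1469 ± 27.8 for *AFP*, 1384 ± 28.4 for *AMBP*, 434 ± 28.0 for *RBP4*, 56.3 ± 5.45 for *TTR* and 0.586 ± 0.103 for *FETUB*. The libraries of *SERPINA1* overlapped those of *AFP* and *AMBP* on this scale, so these neighbours in the order do not differ beyond their spread, whereas the other neighbours did not overlap. The order also rests on the union of all annotated exons as length, with 4902 bases for *SERPINA1*, 3259 for *AFP* and 2041 for *AMBP*. Error in these lengths is not part of the spread between libraries, and other lengths were not tried. In both knockdown lines the order of level per kb was *ALB*, *AHSG*, *AFP*, *AMBP*, *SERPINA1*, *RBP4* and *TTR*, with *SERPINA1* below *AFP* and *AMBP*.

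The genes together took a larger share of the libraries after knockdown, although they moved in different directions. The 7 genes present in both tables held 3.77%, 3.65% and 3.80% of the counts in the sh-Con libraries, 4.20%, 4.22% and 4.38% in sh1-*TUG1* and 4.45%, 4.47% and 4.59% in sh2-*TUG1*. All libraries of a group lay apart from those of the other groups. The mean rose by 0.53 percentage points in sh1-*TUG1* and by 0.77 in sh2-*TUG1*, each with p = 0.1 in a two-sided exact permutation test, the smallest p that 3 libraries against 3 allow. The share of *ALB* went from 1.35% ± 0.100 in sh-Con to 1.88% ± 0.0748 in sh1-*TUG1* and 2.48% ± 0.00770 in sh2-*TUG1* (SD, n = 3), a mean rise of 0.53 and 1.12 percentage points. The other 6 genes together held 2.38% in sh-Con, 2.38% in sh1-*TUG1* and 2.03% in sh2-*TUG1*. In all 3 sh2-*TUG1* libraries *ALB* was the gene with the most counts. Since cells were sequenced in bulk, more cells that express a gene and more RNA per cell cannot be told apart.

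**Figure D1:**
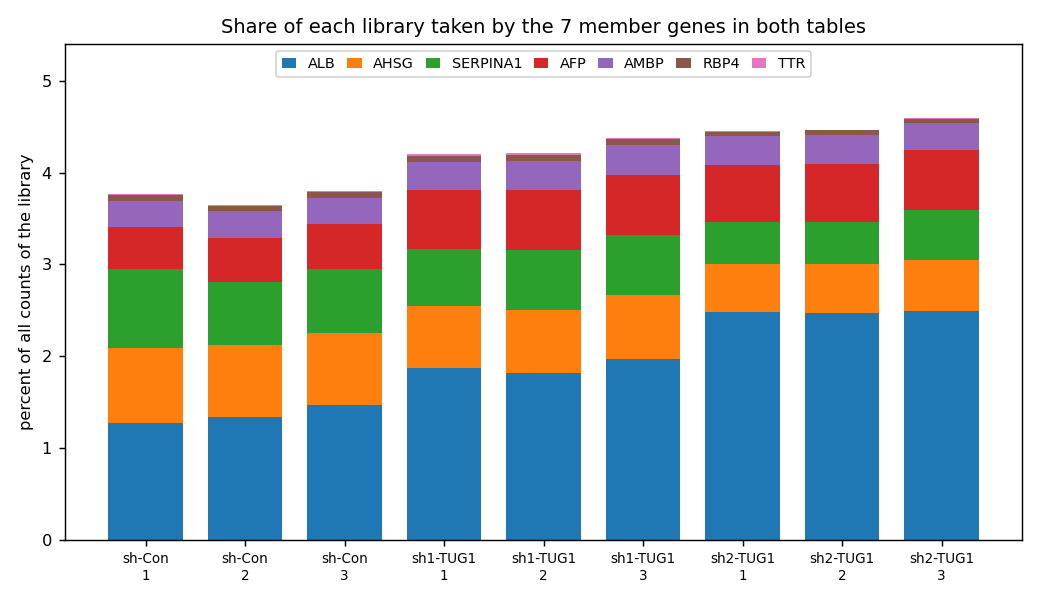
Percent of all counts of each library (y axis) held by the 7 genes listed in both tables, stacked by gene, for the 3 libraries of each group (x axis). The stacks reach 3.65% to 3.80% in sh-Con, 4.20% to 4.38% in sh1-TUG1 and 4.45% to 4.59% in sh2-TUG1, and the ALB segment grows while those of AHSG and SERPINA1 shrink.

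Each knockdown line was compared with sh-Con over all genes of its table by edgeR's quasi-likelihood test, and a gene was called at a Benjamini–Hochberg adjusted p under 0.05. In sh1-*TUG1*, 4 of the 8 genes were higher (*ALB*, *AFP*, *TTR* and *AMBP*), where 12.5% of all genes tested were higher, and 2 were lower (*AHSG* and *SERPINA1*), where 12.3% of all genes were lower. In sh2-*TUG1*, 3 of the 7 genes were higher (*ALB*, *AFP* and *AMBP*), against 21.6% of all genes, and 4 were lower (*TTR*, *RBP4*, *AHSG* and *SERPINA1*), against 21.9%. With the study's additional limit of a 1.5-fold change, 0 of the 8 genes remained in sh1-*TUG1*, where 4.96% of all genes passed, and 3 of the 7 in sh2-*TUG1* (*ALB*, *TTR* and *SERPINA1*), where 13.3% passed. The 0 in sh1-*TUG1* was also obtained with DESeq2, and at an unadjusted p under 0.05 the same 6 genes passed without the fold limit. Libraries of the groups did not overlap for 6 of 8 genes in sh1-*TUG1* and for 7 of 7 in sh2-*TUG1*, where the same held for 41.5% and 54.4% of all genes. Over the genes the median log2 difference from sh-Con was 0.087 (sh1-*TUG1*) and −0.28 (sh2-*TUG1*), where all genes tested had medians of 0.0027 and −0.0048. Both comparisons use the same 3 control libraries, so they are not independent of each other.

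When the lines were compared with each other in a fit of all 9 libraries, *ALB* was higher in sh2-*TUG1* than in sh1-*TUG1*, and *TTR*, *RBP4*, *AHSG* and *SERPINA1* were lower. Thus 1 of 7 genes was higher, where 21.0% of all genes tested were higher, and 4 were lower, against 21.7%. *TTR* alone differed by more than 1.5-fold, where 10.6% of all genes did, and the 2 lines did not overlap for 5 of the 7 genes, against 55.4% of all genes. The median log2 difference of the 7 genes was −0.28, against −0.00067 over all genes.

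**Figure D2:**
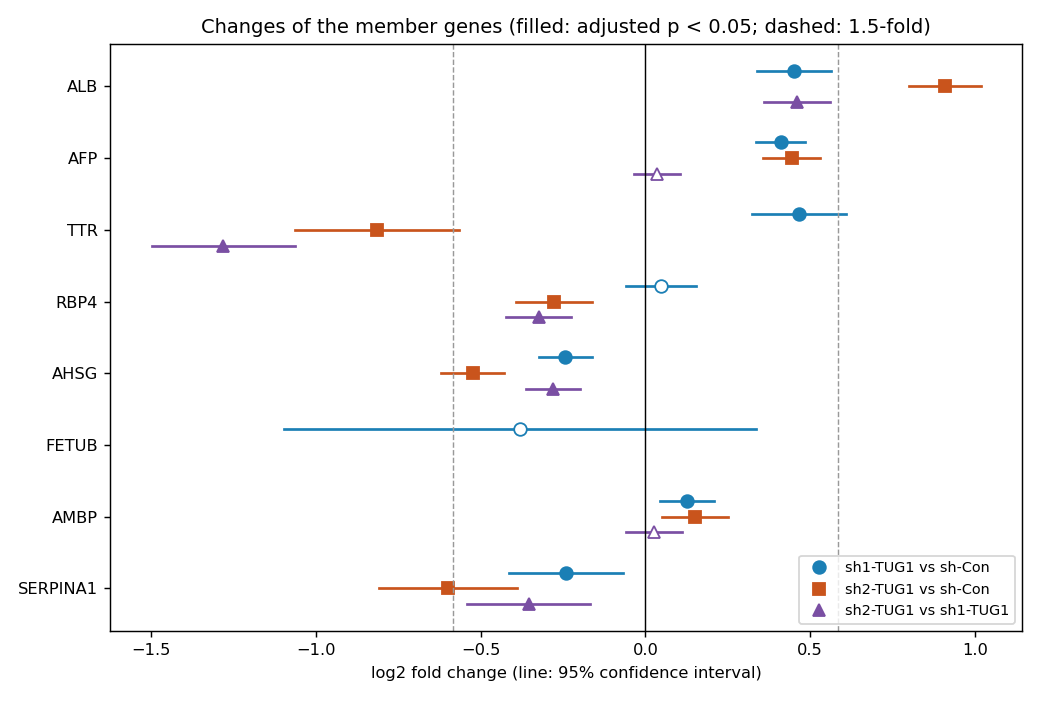
Log2 fold change (x axis) of each gene (y axis) in sh1-TUG1 against sh-Con (circles), sh2-TUG1 against sh-Con (squares) and sh2-TUG1 against sh1-TUG1 (triangles), with 95% confidence intervals as lines. Filled symbols passed an adjusted p of 0.05 and dashed lines mark a 1.5-fold change. TTR lies at 0.47 in sh1-TUG1 and at −0.82 in sh2-TUG1, on opposite sides of 0, while ALB is at 0.45 and 0.91.

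*ALB* rose in both lines, and more in sh2-*TUG1*. The gene lies on chromosome 4 of GRCh38 from 73397114 to 73421412 on the plus strand. Its level was 12779.7, 13243 and 14493 CPM in the control libraries, 18306, 17839 and 19227 CPM with sh1-*TUG1* and 25377, 25383.5 and 25399 CPM with sh2-*TUG1*. The 3 groups were fully separate and ordered from sh-Con over sh1-*TUG1* to sh2-*TUG1*, and the sh2-*TUG1* libraries had a coefficient of variation of 0.045% after scaling. The unscaled *ALB* shares of these libraries, 2.48% ± 0.00770 (SD, n = 3), were less close, so 0.045% is no measure of precision. On the log2 scale sh1-*TUG1* differed from sh-Con by 0.45 (standard error 0.050, edgeR adjusted p = 0.000233) and sh2-*TUG1* by 0.91 (standard error 0.049, edgeR adjusted p = 1.51e-06), or 1.37-fold and 1.88-fold. The only fibroblast marker listed, *PDGFRB*, was also higher from group to group, with 19.3 to 21.8 CPM in sh-Con, 31.9 to 34.4 in sh1-*TUG1* and 53.1 to 58.5 in sh2-*TUG1*. So was the summed level of the endothelial markers listed, *PECAM1* and *VWF*, with 8.75 to 9.46, 11.3 to 12.2 and 12.2 to 13.6 CPM, in which *VWF* had means of 1.49, 3.96 and 4.71 CPM and *PECAM1* of 7.65, 7.95 and 8.33 CPM. Other markers of these cell types, such as *COL1A1* and *CDH5*, were not listed, and the part of these genes in the result was not tested. The difference between the lines was 0.46 on the log2 scale (standard error 0.045, edgeR adjusted p = 1.24e-05).

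*AFP*, the oncofetal neighbour that starts 9.73 kb after the end of *ALB*, rose to about the same level in both lines. It spans 73431138 to 73456174 on the same strand. Its level was 4685, 4853 and 4828 CPM in the control libraries, 6301, 6445 and 6354 CPM with sh1-*TUG1* and 6393, 6503 and 6683 CPM with sh2-*TUG1*. All knockdown libraries were above all control libraries, while the knockdown lines overlapped each other. Against sh-Con, the log2 difference of sh1-*TUG1* was 0.41 (standard error 0.033, edgeR adjusted p = 3.22e-05) and that of sh2-*TUG1* 0.44 (standard error 0.039, edgeR adjusted p = 2.32e-05). The difference between the lines was 0.036, with a 95% confidence interval from −0.035 to 0.11 (edgeR adjusted p = 0.399), and its sign turned to −0.028 when libraries were scaled by their totals alone. When 1 library was left out, this difference ranged from 0.016 to 0.050.

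The ratio of *AFP* to *ALB* counts, which needs no scaling between libraries, was 0.367, 0.366 and 0.333 in sh-Con, 0.344, 0.361 and 0.330 in sh1-*TUG1* and 0.252, 0.256 and 0.263 in sh2-*TUG1*. The sh1-*TUG1* libraries overlapped the control and the sh2-*TUG1* libraries were below both. The mean log2 ratio differed from sh-Con by −0.041 in sh1-*TUG1* (p = 0.5, two-sided exact permutation test) and by −0.47 in sh2-*TUG1* (p = 0.1, exact permutation test, the smallest possible). Between the lines it differed by −0.43 (p = 0.1 by the same exact test). When 1 library was left out, the difference of sh1-*TUG1* from sh-Con ranged from −0.087 to −0.0097.

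**Figure D3:**
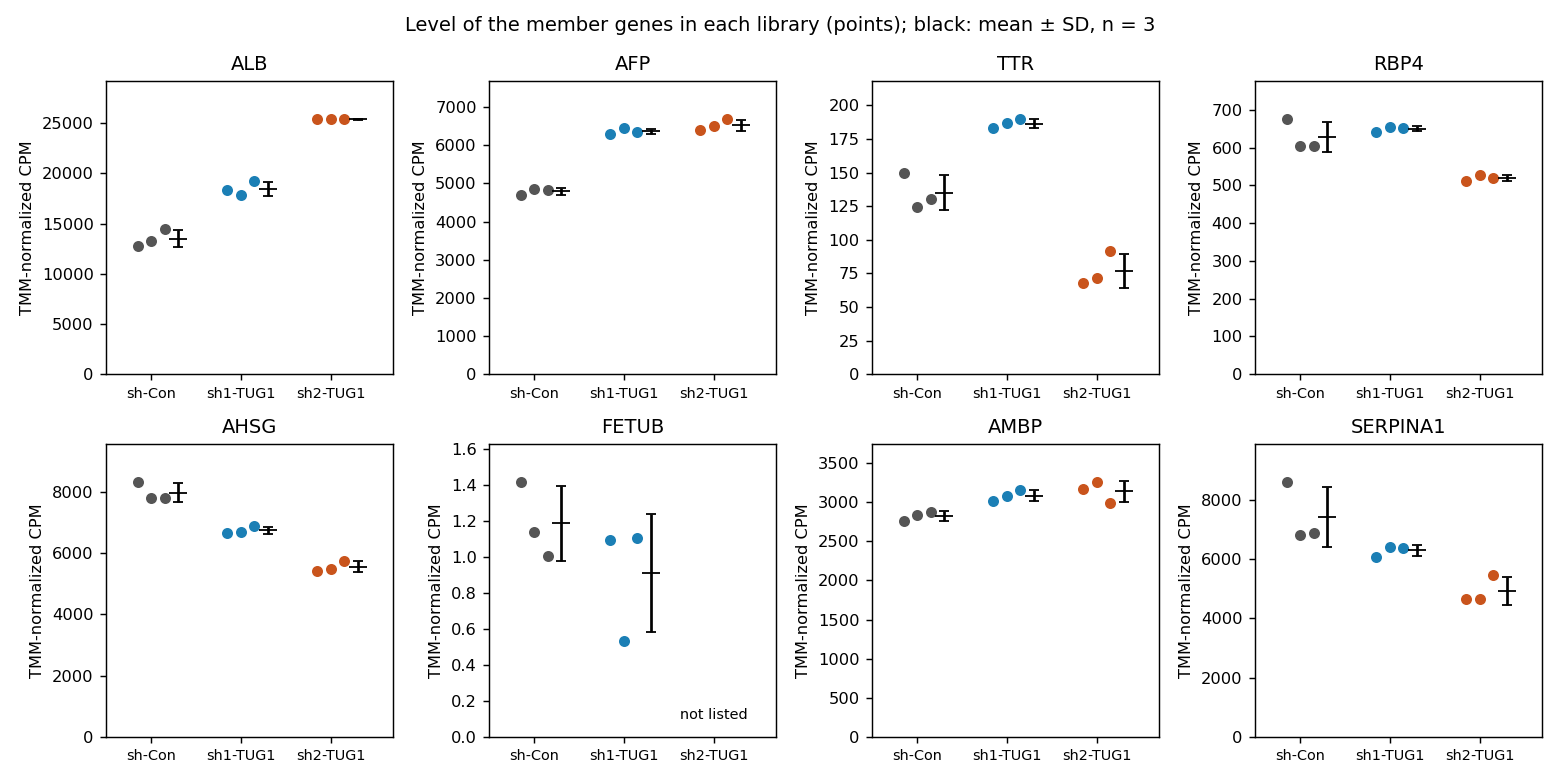
TMM-normalized CPM (y axes, each from 0) of the 8 genes in every library (coloured points) of the 3 groups (x axes), with the mean and SD of 3 libraries in black. ALB climbs from group to group, AFP and AMBP are higher in both knockdown lines, AHSG and SERPINA1 descend, and TTR is highest in sh1-TUG1 and lowest in sh2-TUG1. FETUB was not listed for sh2-TUG1.

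*TTR* moved in opposite directions in the knockdown lines. The gene lies on chromosome 18 from 31557010 to 31599021 on the plus strand. Its level was 149.6, 125 and 131 CPM in the control libraries, 183, 187 and 189.7 CPM with sh1-*TUG1* and 67.6, 71.2 and 91.4 CPM with sh2-*TUG1*. The groups did not overlap, with sh1-*TUG1* above and sh2-*TUG1* below the control, and sh2-*TUG1* replicate 3 was the highest of its group. On the log2 scale sh1-*TUG1* differed from sh-Con by 0.47 (standard error 0.064, edgeR adjusted p = 0.000744) and sh2-*TUG1* by −0.82 (standard error 0.11, edgeR adjusted p = 0.000363). The difference between the lines was −1.28 (standard error 0.10, edgeR adjusted p = 1.94e-06), so the level in sh2-*TUG1* was 0.412 times that in sh1-*TUG1*. With each of the 6 libraries left out in turn, the change in sh2-*TUG1* ranged from −0.96, without sh2-*TUG1* replicate 3, to −0.73. The summed level of the listed immune markers *CD68* and *LYZ* was 926 to 1138 CPM in sh-Con, 1155 to 1243 in sh1-*TUG1* and 713 to 778 in sh2-*TUG1*. The mean of *LYZ* was 981, 1159 and 716 CPM, in the order of *TTR*, and that of *CD68* was 63.7, 35.2 and 20.8 CPM, lower in both lines, while *PTPRC*, *CD3E*, *CD14* and *MS4A1* were not listed. Their part in the result was not tested.

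*RBP4*, the partner of transthyretin in the transport of retinol, fell in sh2-*TUG1* and did not pass the test in sh1-*TUG1*. It lies on chromosome 10 from 93591687 to 93601744 on the minus strand, inside *FFAR4* on the other strand, which was not in the tables. Its level was 675, 606 and 605 CPM in the control libraries, 643, 655 and 652 CPM with sh1-*TUG1* and 511, 527 and 519 CPM with sh2-*TUG1*. The sh2-*TUG1* libraries were below all others, and sh-Con replicate 1 was above the sh1-*TUG1* libraries while the other control libraries were below them. Against sh-Con, the log2 difference of sh1-*TUG1* was 0.048 (95% confidence interval −0.059 to 0.15, edgeR adjusted p = 0.511) and that of sh2-*TUG1* −0.28 (standard error 0.052, edgeR adjusted p = 0.00212). Without sh-Con replicate 1 the value in sh1-*TUG1* was 0.096 and passed the test (edgeR adjusted p = 0.0245). The lines differed by −0.32 (standard error 0.045, edgeR adjusted p = 0.000155).

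There were 0.222, 0.206 and 0.216 *TTR* counts for each *RBP4* count in sh-Con, 0.285, 0.285 and 0.291 in sh1-*TUG1* and 0.132, 0.135 and 0.176 in sh2-*TUG1*. The ratio was thus highest in sh1-*TUG1* and lowest in sh2-*TUG1*, with no overlap of the groups. On the log2 scale it differed from sh-Con by 0.42 in sh1-*TUG1* and by −0.55 in sh2-*TUG1*, and by −0.97 between the lines (p = 0.1 for each, two-sided exact permutation test, the smallest possible). Without sh2-*TUG1* replicate 3, whose ratio was the highest of its group, the difference from sh-Con was −0.68 and that between the lines −1.10. With all 3 ratios and shares compared in all 3 ways, 9 such tests were made, and none can pass 0.05 before or after adjustment.

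**Figure D4:**
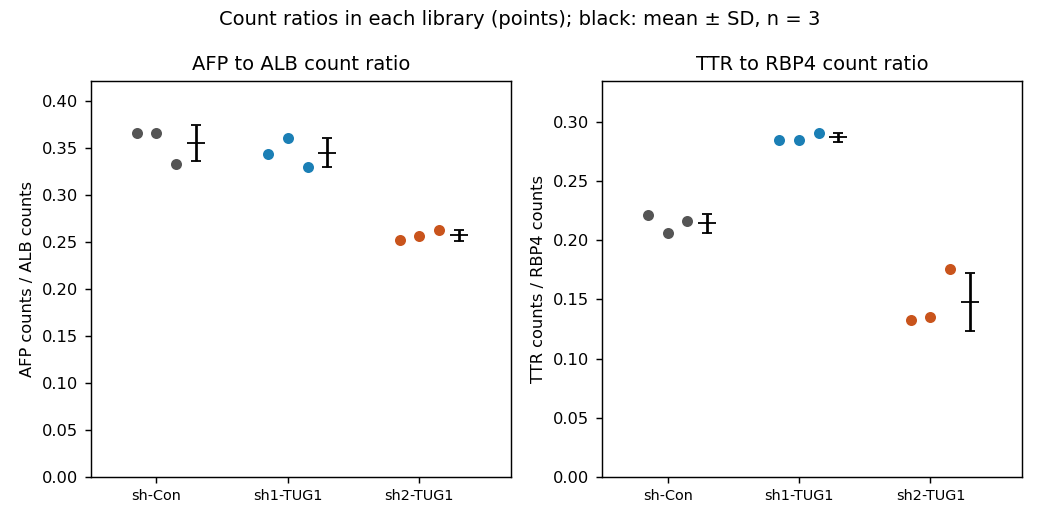
Ratio of AFP to ALB counts (left) and of TTR to RBP4 counts (right) on linear y axes from 0, in each library (coloured points) of the 3 groups (x axes), with the arithmetic mean and SD in black. AFP to ALB is 0.330 to 0.367 in sh-Con and sh1-TUG1 and 0.252 to 0.263 in sh2-TUG1. TTR to RBP4 is 0.206 to 0.222 in sh-Con, 0.285 to 0.291 in sh1-TUG1 and 0.132 to 0.176 in sh2-TUG1.

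*AHSG*, which encodes fetuin A, fell in both lines and further in sh2-*TUG1*. It lies on chromosome 3 from 186612923 to 186621318 on the plus strand and overlaps the antisense gene *AC068631.1*, which was not in the tables. Its level was 8330.3, 7795 and 7811 CPM in the control libraries, 6655, 6704 and 6884 CPM with sh1-*TUG1* and 5436, 5474 and 5759.5 CPM with sh2-*TUG1*. The 3 groups were fully separate in the reverse of the order of *ALB*. The summed level of the 4 cholangiocyte markers listed was also lower from group to group, from 1019 to 1090.0 CPM in sh-Con over 887 to 916 in sh1-*TUG1* to 801 to 836 in sh2-*TUG1*. Of these only *KRT19* had lower means in that order (351, 279.6 and 172 CPM), *SPP1* had 374, 263 and 280.1 CPM, and *SOX9* (165, 190.3 and 187 CPM) and *EPCAM* (158, 170.2 and 177 CPM) had higher means in both lines. Their part in the result was not tested. On the log2 scale sh1-*TUG1* differed from sh-Con by −0.24 (standard error 0.036, edgeR adjusted p = 0.00119) and sh2-*TUG1* by −0.52 (standard error 0.043, edgeR adjusted p = 1.61e-05). The difference between the lines was −0.28 (standard error 0.038, edgeR adjusted p = 0.000127).

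*FETUB*, the gene of fetuin B, lies 14.7 kb further along chromosome 3, from 186635969 to 186653141, under the same antisense gene. It was near the lower end of the table, with 46, 38 and 37 counts in sh-Con and 37, 19 and 41 counts in sh1-*TUG1*, or 1.19 ± 0.209 and 0.909 ± 0.328 CPM (SD, n = 3). The libraries overlapped. The fitted log2 difference was −0.38 with a 95% confidence interval from −1.10 to 0.33 (edgeR adjusted p = 0.427), which includes a 1.5-fold fall, so a change of that size was not detectable at this depth. Leaving out sh1-*TUG1* replicate 2, the library with 19 counts, moved it to −0.11, and leaving out sh-Con replicate 1 moved it to −0.24. Because the counting is not stated to use strand, reads of *AHSG*, *FETUB* and their antisense gene, or of *RBP4* and *FFAR4*, cannot be told apart where they overlap.

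*AMBP*, a precursor that is cleaved into alpha-1-microglobulin and bikunin, was slightly higher in both lines. It lies on chromosome 9 from 114060127 to 114078472 on the minus strand. Its level was 2760.2, 2839 and 2873 CPM in the control libraries, 3010.8, 3083 and 3155 CPM with sh1-*TUG1* and 3164, 3259 and 2995 CPM with sh2-*TUG1*. All knockdown libraries were above the control libraries and the knockdown lines overlapped. Against sh-Con, the log2 difference of sh1-*TUG1* was 0.13 (standard error 0.036, edgeR adjusted p = 0.0312) and that of sh2-*TUG1* 0.15 (standard error 0.044, edgeR adjusted p = 0.0212). These calls were close to the threshold. In sh1-*TUG1* the call was lost without sh-Con replicate 2 or 3 or any sh1-*TUG1* replicate, with edgeR adjusted p-values from 0.0554 to 0.145. In sh2-*TUG1* it was lost without sh-Con replicate 2 (0.0506), sh2-*TUG1* replicate 1 (0.0833) or replicate 2 (0.105), and also with library totals alone (0.059) and with the replicate block (0.0531). The difference between the lines was 0.026 with a 95% confidence interval from −0.059 to 0.11 (edgeR adjusted p = 0.621), and it turned to −0.038 with library totals alone and to −0.0017 without sh2-*TUG1* replicate 2.

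*SERPINA1*, the gene of alpha-1-antitrypsin, which protects tissue from neutrophil elastase, fell in sh2-*TUG1* and less firmly in sh1-*TUG1*. It lies on chromosome 14 from 94376747 to 94390693 on the minus strand. Its level was 8606.5, 6822 and 6876 CPM in the control libraries, 6079.9, 6416 and 6381 CPM with sh1-*TUG1* and 4668, 4637 and 5458 CPM with sh2-*TUG1*. The 3 groups did not overlap, but sh-Con replicate 1 was well above its group and sh2-*TUG1* replicate 3 above its own. On the log2 scale sh1-*TUG1* differed from sh-Con by −0.24 (standard error 0.077, edgeR adjusted p = 0.0464) and sh2-*TUG1* by −0.60 (standard error 0.093, edgeR adjusted p = 0.000799). Without sh-Con replicate 1 these values were −0.13 (edgeR adjusted p = 0.00473) and −0.48 (edgeR adjusted p = 0.000443). The call in sh1-*TUG1* was lost without any of its own replicates, with edgeR adjusted p-values of 0.146, 0.104 and 0.103, and also with library totals alone (0.0618) and in the fit of all 9 libraries (0.0551). In sh2-*TUG1* the change was under 1.5-fold without sh-Con replicate 1, and also without sh2-*TUG1* replicate 1 (−0.56) or replicate 2 (−0.55). The lines differed by −0.35 (standard error 0.085, edgeR adjusted p = 0.00574), and by −0.44 without sh2-*TUG1* replicate 3.

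The study examined miR-122-5p, a microRNA of hepatocytes, as a partner of *TUG1*. Its mature sequence is shown because its seed, bases 2 to 8 in capitals, is the part for which a match was searched. Pairing outside the seed was not searched.
hsa-miR-122-5p: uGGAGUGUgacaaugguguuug
The complement of the seed, ACACTCC, was searched in the longest annotated 3′ untranslated region of each gene (GENCODE 29). It was found in 0 of the 8 genes, and in 8.52% of 11907 genes of the tables. The regions searched were 115 bases long for *AMBP* and 1705 for *SERPINA1*, with 347 to 557 bases for the others, and absence of these letters does not show that the microRNA has no effect on a gene.

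For each gene the other genes with the most similar course over the 9 libraries were found by the root mean square difference of centred log2 CPM. Directions that they share with that gene follow from this choice. *SOCS5* (0.0624) and *MANSC1* (0.0676) were nearest to *ALB*, with log2(fold change) values of 0.47 and 0.93 for *SOCS5* in sh1-*TUG1* and sh2-*TUG1*. *TP53I13* (0.0423) and *FGL1* (0.0432), the latter the gene of another secreted liver protein, were nearest to *AFP*. *SERPINA6* (0.0899), the gene of corticosteroid-binding globulin, and *NOS3* (0.0978) were nearest to *TTR*, and both were above sh-Con in sh1-*TUG1* (0.33 and 0.64) and below it in sh2-*TUG1* (−0.92 and −0.82). The nearest to *RBP4* were *SEZ6L2* (0.0335) and *DOCK1* (0.0361), to *AHSG* *GCSH* (0.0404) and *LAMB1* (0.0438), to *AMBP* *MIEF1* (0.0209) and *NAXD* (0.0249), and to *SERPINA1* *CACNA1H* (0.0545) and *CHMP2A* (0.0628).

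Gene lists of the pathways around these proteins were then counted in the same tests, each to be read against the share of all genes called. Where a gene has a pair of values, they are log2 differences from sh-Con, first in sh1-*TUG1* and then in sh2-*TUG1*. Medians of a list are given with their lowest and highest value when 1 library was left out. The other albumin family genes of the list, *AFM* and *GC*, were not listed in either table. Of the clade A serpins, relatives of *SERPINA1* that inhibit proteases or carry hormones, 9 were tested. The sh1-*TUG1* line had 6 of them higher and 2 lower, with a median log2 difference of 0.39 (0.37 to 0.42), and the sh2-*TUG1* line 1 higher and 5 lower, with a median of −0.26 (−0.42 without sh2-*TUG1* replicate 3, to −0.19). Of the 2 lower in sh1-*TUG1*, 1 was lost without sh-Con replicate 3 or sh1-*TUG1* replicate 2 or 3. Between the lines 8 of 9 were lower in sh2-*TUG1* and 0 higher, with a median of −0.81 (−0.87 to −0.78), and this count was 8 under every alternative run. *SERPINA5*, a protein C inhibitor, rose by 0.51 in both lines (edgeR adjusted p = 1.77e-05 and 1.94e-05). *SERPINA6* had 0.33 and −0.92 (edgeR adjusted p = 0.00283 and 3.2e-05), and *SERPINA12* had −0.76 and −2.57 (edgeR adjusted p = 0.022 and 9.08e-05).

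Of 21 other secreted plasma proteins, sh1-*TUG1* had 7 higher and 3 lower (median 0.062), and sh2-*TUG1* 2 higher and 9 lower (median −0.23). Both medians depended on single libraries. The first was 0.24 without sh-Con replicate 3, 0.017 without sh-Con replicate 2 and −0.022, with the sign turned, without sh1-*TUG1* replicate 3. The second was −0.063 without sh-Con replicate 3, −0.088 and −0.096 without sh2-*TUG1* replicate 1 or 2, and −0.34 without sh2-*TUG1* replicate 3. Haptoglobin (*HP*), which binds free hemoglobin, rose by 1.44 on the log2 scale with sh1-*TUG1* and had −1.31 with sh2-*TUG1* (edgeR adjusted p = 4.56e-06 and 6.45e-05). Ceruloplasmin (*CP*), a copper-carrying ferroxidase, fell in both lines, with log2 differences of −1.04 and −1.57 (edgeR adjusted p = 5.5e-07 and 2.69e-07). Alpha-2-macroglobulin (*A2M*), a broad protease inhibitor, rose in both by 0.92 and 1.33 (edgeR adjusted p = 0.000773 and 4.34e-05).

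Of 6 genes of thyroid hormone handling tested, sh1-*TUG1* had 4 higher and 0 lower (median 0.53, 0.46 to 0.60), and sh2-*TUG1* 3 higher and 1 lower (median 0.19). The second median was 0.11 without sh-Con replicate 2 or sh2-*TUG1* replicate 3 and 0.29 without sh-Con replicate 3. *DIO1*, a deiodinase that activates thyroxine, had a difference of 0.61 with sh1-*TUG1* and −1.63 with sh2-*TUG1* (edgeR adjusted p = 0.0138 and 0.00011). The transporter *SLC16A10* rose by 1.58 and 0.82 (edgeR adjusted p = 0.000347 and 0.00953) and the receptor *THRA* by 0.45 and 0.53 (edgeR adjusted p = 0.00714 and 0.000423). Of the genes of vitamin A handling, sh1-*TUG1* had 3 of 11 higher and 0 lower (median 0.10, and 0.068, 0.067 and 0.056 without sh-Con replicate 1, sh-Con replicate 2 and sh1-*TUG1* replicate 3), and sh2-*TUG1* 5 of 10 higher and 2 lower (median 0.18, 0.17 to 0.23). The retinoic acid receptor *RARA* rose by 0.41 and 0.43 (edgeR adjusted p = 0.00704 and 0.00285), and *DGAT1*, which esterifies retinol and diglycerides, by 0.71 and 0.18 (edgeR adjusted p = 7.66e-05 and 0.0396).

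All 4 cystatin superfamily genes tested, relatives of the fetuins, were lower in sh2-*TUG1*, with a median of −0.55 (−0.62 to −0.45). That count of lower genes dropped to 3 without sh-Con replicate 1 or 2 or sh2-*TUG1* replicate 1 or 2. The sh1-*TUG1* line had 1 higher and 2 lower (median −0.042, and 0.018, −0.15 and −0.083 without sh-Con replicate 1, 2 and 3), and 1 lower call was lost without sh-Con replicate 1 or 2 or any sh1-*TUG1* replicate, and the higher call without sh1-*TUG1* replicate 2. *CSTB*, an inhibitor of cathepsins, fell (−0.40 and −0.62, edgeR adjusted p = 0.00704 and 0.000338) and so did *CSTA* (−0.46 and −0.48, edgeR adjusted p = 0.0412 and 0.0262), while *CST3*, the secreted cystatin C, had 0.32 and −0.47 (edgeR adjusted p = 0.0119 and 0.000918). Of the 10 partners of bikunin and lipocalins tested, sh1-*TUG1* had 4 higher and 2 lower (median 0.078, and 0.050, 0.032, 0.13 and −0.015 without sh-Con replicate 1, sh-Con replicate 2, sh1-*TUG1* replicate 1 and sh1-*TUG1* replicate 3). The higher count dropped to 1 without sh-Con replicate 3 or sh1-*TUG1* replicate 2 and to 2 without sh-Con replicate 2 or sh1-*TUG1* replicate 1 or 3, and the lower count to 1 without sh1-*TUG1* replicate 2 or 3. The sh2-*TUG1* line had 3 higher and 5 lower (median −0.34). That median was −0.20 without sh-Con replicate 3, −0.22 without sh2-*TUG1* replicate 1 and −0.53, with 7 lower, without sh2-*TUG1* replicate 3. The heavy chain genes that are linked to bikunin had 0.19, 0.16 and 0.12 in sh1-*TUG1* and −0.49, 0.31 and 0.26 in sh2-*TUG1* for *ITIH1*, *ITIH2* and *ITIH3*, and all but *ITIH1* in sh1-*TUG1* passed the test (edgeR adjusted p from 0.000747 to 0.0488, and 0.285 for the exception). *ITIH5* rose by 0.35 and 0.77 (edgeR adjusted p = 0.0122 and 7.01e-05). Among the lipocalins, *LCN2* fell (−0.43 and −0.85, edgeR adjusted p = 0.0116 and 0.000443) and so did *C8G* (−0.53 and −1.77, edgeR adjusted p = 0.00636 and 0.000201).

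**Figure D5:**
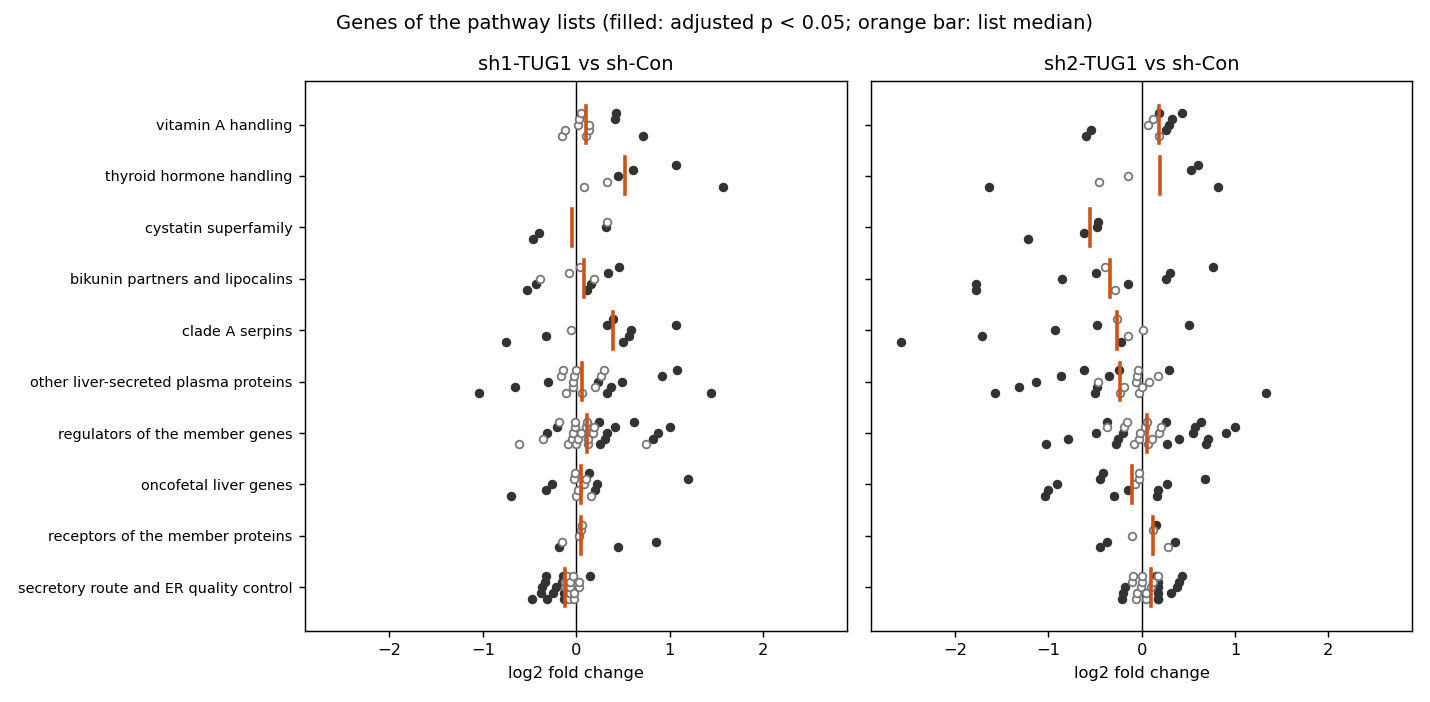
Log2 fold change (x axes) of each tested gene (points) in 10 gene lists (y axis) in sh1-TUG1 (left) and sh2-TUG1 (right) against sh-Con. Filled points passed an adjusted p of 0.05 and orange bars are list medians. The median of the clade A serpins is 0.39 on the left and −0.26 on the right, and that of the secretory route is −0.12 and 0.096.

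Of 29 transcription factors known to act on these genes, sh1-*TUG1* had 9 higher and 2 lower (median 0.11, 0.059 without sh-Con replicate 2, to 0.15), with 1 lower without sh1-*TUG1* replicate 3, and sh2-*TUG1* had 10 higher and 7 lower (median 0.056), with 6 higher without sh2-*TUG1* replicate 3. The second median was 0.11 without sh-Con replicate 1, 0.086 without sh2-*TUG1* replicate 3, and 0.019, 0.029 and 0.032 without sh-Con replicate 2, sh2-*TUG1* replicate 1 and sh2-*TUG1* replicate 2. *GATA4*, a factor of the early liver, rose by 0.82 and 1.00 (edgeR adjusted p = 4.61e-05 and 8.48e-06), the bile acid receptor *NR1H4* by 0.62 and 0.71 (edgeR adjusted p = 0.00547 and 0.00274) and *DBP*, a clock-driven activator named for binding to the albumin promoter, by 1.00 and 0.69 (edgeR adjusted p = 0.0165 and 0.0497). *HNF4A* had −0.013 and −0.20 (edgeR adjusted p = 0.832 and 0.00758). Among known repressors of *AFP*, *ZHX2* fell (−0.31 and −0.49, edgeR adjusted p = 0.00925 and 0.000405), *ZFHX3* rose by 0.24 and 0.26 (edgeR adjusted p = 0.0123 and 0.00423), and *ZBTB20* had −0.19 in each line (edgeR adjusted p = 0.196 and 0.132).

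Other oncofetal liver genes were called in both directions. Of 14 tested, sh1-*TUG1* had 4 higher and 3 lower (median 0.052, and 0.085 and 0.081 without sh-Con replicate 3 and sh1-*TUG1* replicate 2), and sh2-*TUG1* 4 higher and 7 lower (median −0.11, −0.16 without sh2-*TUG1* replicate 3, to −0.091), with 2 higher without sh-Con replicate 3 or sh2-*TUG1* replicate 2. The fetal growth factor *IGF2* fell (−0.70 and −1.005, edgeR adjusted p = 4.41e-05 and 3.39e-06) and so did the biliary keratin *KRT19* (−0.33 and −1.03, edgeR adjusted p = 0.000626 and 7.01e-07), while the trypsin inhibitor *SPINK1* rose by 1.19 and 0.68 (edgeR adjusted p = 0.00334 and 0.0377). Of 7 receptor genes of these proteins, sh1-*TUG1* had 2 higher and 1 lower (median 0.054, 0.039 to 0.056) and sh2-*TUG1* 2 higher and 2 lower (median 0.12). The second median turned to −0.066 without sh-Con replicate 3 and to −0.053 without sh2-*TUG1* replicate 1, and was 0.19 without sh2-*TUG1* replicate 3. The lower call was lost without sh1-*TUG1* replicate 1, and 1 of the higher calls in sh2-*TUG1* without sh-Con replicate 2 or sh2-*TUG1* replicate 1 or 2. *FCGRT*, whose product returns albumin to the circulation, rose by 0.45 in sh1-*TUG1* (edgeR adjusted p = 0.000239) and had −0.11 in sh2-*TUG1* (edgeR adjusted p = 0.293). *AMN*, part of a receptor for albumin uptake, rose by 0.85 in sh1-*TUG1* (edgeR adjusted p = 0.00162) and had 0.28 in sh2-*TUG1* (edgeR adjusted p = 0.112). *ASGR1*, of the asialoglycoprotein receptor, fell (−0.18 and −0.45, edgeR adjusted p = 0.0119 and 0.000108).

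Secreted proteins leave the cell through the endoplasmic reticulum and Golgi. Of 25 genes of cargo transport and quality control in the endoplasmic reticulum, sh1-*TUG1* had 12 lower and 1 higher (median −0.12, −0.13 to −0.11), and sh2-*TUG1* 3 lower and 10 higher (median 0.096, 0.074 to 0.11). The higher call in sh1-*TUG1* was lost without any of its replicates or sh-Con replicate 2 or 3, and 1 gene was lower in sh2-*TUG1* without its replicate 3. Between the lines 18 of the 25 were higher in sh2-*TUG1* and 0 lower (median 0.24, 0.23 to 0.25), where 21.0% of all genes were higher and 21.7% lower, and 0 of them differed by more than 1.5-fold. With libraries scaled by their totals alone, 8 were lower in sh1-*TUG1*, 7 higher in sh2-*TUG1*, and between the lines 16 were higher and 2 lower. *LMAN1* and *MCFD2*, whose products form the receptor that carries alpha-1-antitrypsin out of the endoplasmic reticulum, had −0.34 and −0.13 in sh1-*TUG1* (edgeR adjusted p = 0.000828 and 0.0319) and −0.10 and 0.43 in sh2-*TUG1* (edgeR adjusted p = 0.197 and 5.22e-05). The cargo receptor *MIA3* fell by 0.24 in sh1-*TUG1* and rose by 0.15 in sh2-*TUG1* (edgeR adjusted p = 0.00471 and 0.0308). *HSP90B1*, a chaperone, fell (−0.22 and −0.20, edgeR adjusted p = 0.00502 and 0.00663) and so did *EDEM3*, which trims glycans of misfolded proteins (−0.32 and −0.17, edgeR adjusted p = 0.00142 and 0.0186).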

How the data were processed

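RNA-seq libraries of 3 groups of HepG2 cells, 3 each, were grouped by their labels. The counts deposited by the authors, 1 table for each knockdown line with its control libraries, carry no normalization and were used for all tests. The submitters' processing notes name HISAT2, StringTie and GRCh38, and library preparation used a NEBNext Ultra RNA kit. The deposited FPKM values, and the log2 fold changes and false discovery rates (adjusted p-values) of the authors' own comparison, were not used. Control counts were identical in both tables over 12854 shared genes.

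The software was R 4.3.3 and edgeR 4.0.16, used with TMM scaling (quasi-likelihood test, Benjamini–Hochberg adjustment over all genes of a table). filterByExpr removed 0 genes. Each line was fitted with sh-Con in 6 libraries, and the lines were compared in a fit of all 9. Printed CPM values of member genes come from the 9 libraries scaled together, except for *FETUB*. Levels per kb used the union of exons in GENCODE 29, which also gave the gene positions. Ratios of counts were compared with exact permutation tests (scipy 1.17.1). Promoter windows and the microRNA sequence came from RefSeq, and 3′ untranslated regions from GENCODE 29.

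The member genes and the gene lists were chosen with earlier results of these data known. Genes named are the members, the 2 genes closest to each in course, and from each list the 3 genes with at least 50 mean counts with the largest value of the smaller of their 2 absolute changes, among those called in both lines or, failing that, in 1. Genes may also be named where a list is described. Alternatives were RLE size factors, library totals alone, members left out of the scaling, no filter, at least 1 CPM in 3 libraries, only rows with an Ensembl identifier, DESeq2 1.42.0, other sets of libraries in the fit, a block for the replicate number, the fold tested against 1.5, other summaries of ratios, and leaving out each library. Some results are not reported here. All tests across genes were first run on simulated counts. Totals of 33054291 or more counts leave little counting error for genes of these levels except *FETUB*, and the spread between libraries limits the precision.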

Additional observations from a re-analysis of the deposited data

Results flagged for a closer look

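5 of the 7 genes tested in both lines differed between the knockdown lines in the fit of all 9 libraries, which is what drew attention to them. Of all genes tested, 21.0% were higher and 21.7% lower in this comparison, and the lines did not overlap for 55.4%. The 5 genes were selected by the same adjusted p-values that are given here. The log2 difference of sh2-*TUG1* from sh1-*TUG1* was −1.28 for *TTR*, −0.32 for *RBP4*, −0.28 for *AHSG*, −0.35 for *SERPINA1* and 0.46 for *ALB* (edgeR adjusted p from 1.94e-06 to 0.00574, with 3 libraries in each line and no overlap for any of the 5). For *TTR* the lines moved to opposite sides of sh-Con. For *ALB*, *AHSG* and *SERPINA1* both lines moved to the same side and sh2-*TUG1* further. No gene was singled out for a library that stood apart, since groups of 3 were not tested for that.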

How the results depend on the processing

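Of the values for single genes, 331 kept their direction and their side of the threshold, 15 fell below it, 1 passed it and 3 changed sign. A count of genes was taken as kept if it stayed within 1.5 times the main count, and a ratio or share if its sign held. By these wide limits 173 were kept and 1 moved. Changes in the size of a ratio or share were not judged by them. The 3 genes past 1.5-fold in sh2-*TUG1* became 1 when a change beyond 1.5-fold was what the test asked. The differences between the lines that changed sign were those of *AFP* (−0.028 with library totals alone) and *AMBP* (−0.038 with library totals alone and a range from −0.0017 to 0.056 when 1 library was left out), none of which passed the test. Library totals alone moved the median of all genes by under 0.1 on the log2 scale, to 0.030, −0.040 and −0.065 in the 3 comparisons. They also ended the calls of *SERPINA1* in sh1-*TUG1* (edgeR adjusted p = 0.0618) and *AMBP* in sh2-*TUG1* (0.059), and the fit of 9 libraries that of *SERPINA1* in sh1-*TUG1* (0.0551). The cause was not tested. When 1 library was left out, 4 to 7 genes were called in sh1-*TUG1*, 6 to 7 in sh2-*TUG1* and 5 between the lines.

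Same-numbered libraries of different groups did not deviate together (correlations from −0.33 to 0.011 over 11451 genes), so the numbers do not pair the libraries. With the replicate number as a replicate block, 6 genes were called in sh1-*TUG1* and 6 in sh2-*TUG1*, where *AMBP* was lost (0.15, edgeR adjusted p = 0.0531).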

Other observations

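The genes nearest on the chromosome that were tested, looked up after the results of the member genes were seen, did not all move with them. *ANKRD17*, 138 kb before *ALB*, had a log2 difference of 0.066 with sh1-*TUG1* (edgeR adjusted p = 0.454) and rose by 0.31 in sh2-*TUG1* (edgeR adjusted p = 0.00347). *DNAJB11*, a chaperone gene 27.1 kb before *AHSG*, fell by 0.19 in sh1-*TUG1* and rose by 0.17 in sh2-*TUG1* (edgeR adjusted p = 0.0143 and 0.0185), while *AHSG* fell in both. *KNG1*, the kininogen gene 64.1 kb after *FETUB*, had 0.33 in sh1-*TUG1* (edgeR adjusted p = 0.324) and fell by 1.22 in sh2-*TUG1* (edgeR adjusted p = 0.0077). *SERPINA1* lies between *SERPINA6* and *SERPINA11*, which had 0.33 and −0.32 in sh1-*TUG1* (edgeR adjusted p = 0.00283 and 0.00475) and fell by 0.92 and 1.71 in sh2-*TUG1* (edgeR adjusted p = 3.2e-05 and 1.51e-06). Beside *TTR*, *DSG2* had −0.22 and −0.057 (edgeR adjusted p = 0.0085 and 0.374) and *B4GALT6* 0.16 and −0.35 (edgeR adjusted p = 0.472 and 0.0888).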
